A study of Mus musculus with 6 samples.

Results

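The genes described here are 10 components, feedback inhibitors and target genes of JAK-STAT signaling in the mouse: Osm, Jak1, Jak2, Stat3, Cish, Socs1, Socs2, Socs3, Pim1 and Pim2. They were chosen by name, and all 10 were found among the 36083 genes of the per-library table. RNA-seq was done on Lin- bcCML cells, the lineage-negative fraction of a mouse model of blast crisis chronic myelogenous leukemia. KLS cells, which are Kit+ Lin- Sca1+ stem and progenitor cells, were taken from WT or Sdc1-/- donors on a B6 background. In both groups they were infected with retroviruses that carry BCR-ABL and NUP98-HOXA9, and the leukemic cells were sorted from the spleens of recipients all killed at the same time. The labels name NSG mice, which are immunodeficient, as recipients, while the study's general methods for this leukemia name another strain. Each group has 3 libraries, named WT 1 to 3 and Sdc1 KO 1 to 3, and the comparison asks what differs in these cells when the donor carries a disrupted Sdc1, the gene of the heparan sulfate proteoglycan Syndecan 1. The Sdc1 allele is a disruption of the signal peptide sequence, which keeps mature protein from the surface. Every cell carries the fusion kinase BCR-ABL, so the groups share an oncogene that itself feeds this pathway. The age of these donors is not settled, since the study gives differing age ranges for its mice.

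In JAK-STAT signaling a cytokine binds a receptor that has no kinase of its own, and the JAK kinases held at its tail phosphorylate the receptor and the STAT transcription factors. Phosphorylated STATs pair, enter the nucleus and bind sites that contain the palindrome TTCNNNGAA. Among their targets are CIS and the SOCS proteins, which bind JAKs or receptors and end the signal, and the PIM kinases, which favor survival and protein synthesis. BCR-ABL activates STAT5 directly, and in BCR-ABL leukemia transcripts of this pathway are common readouts of STAT activity. The RNA values below measure transcripts and not phosphorylation.

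Values are the authors' rescaled TPM, a relative transcript abundance adjusted for transcript length, which allows levels of different genes to be compared. Differences were tested with limma on log2(value + 1) over the 12155 genes whose mean reached 1, with Benjamini-Hochberg adjustment. A log2 fold change is Sdc1 KO minus WT on this scale, followed by its standard error (SE), and the added 1 makes it smaller than the true change where values are low. The library sums ran from 944973 to 1058263, and the read depth is unknown. No source used here says that the libraries were made from separate mice, and a legend of the study calls the WT libraries technical replicates. The SDs, standard errors and p-values below therefore measure only the spread between these libraries, which may be wholly technical. Sdc1 itself was at 1.75, 1.21 and 1.51 in the WT libraries and at 3.85, 3.80 and 4.12 in those labelled Sdc1 KO. It was thus higher in the group whose protein is disrupted (log2 fold change 0.99 ± 0.093, adjusted p = 0.00012), and every direction below is drawn between libraries named by their labels. The Y-linked marker genes had a summed level of 0.276 to 0.308 in WT libraries and 68.1 to 78.4 in libraries labelled Sdc1 KO, so the sex of the donor cells and the group cannot be told apart. RNA was bulk, so fewer cells of a type and less RNA per cell cannot be told apart.

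The palindrome that STAT factors bind was sought in the 250 bases before the start of each gene in RefSeq promoters of GRCm38.p6, because these genes are grouped as STAT targets. The letters searched were TTCNNNGAA, which read the same on both strands. Of the 10 genes, 8 had an entry, and the motif stood in 1 of them (12.5%). Socs2 and Osm had no entry. Among all genes with an entry, 2197 of 27025 (8.13%) held it. The match lay before Socs3, on the minus strand, with its first base 154 bases before the start, and the window chr11:117969501-117969530 (GRCm38.p6) is shown with the motif in capitals.
Socs3: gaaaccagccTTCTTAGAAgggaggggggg
The start used is that of the RefSeq table, which lies inside the longer GENCODE span given for Socs3 further on, so the window lies within that span too. For Cish, and for the later of the starts of Pim1, the bases searched also lay inside the GENCODE span. The bases before the GENCODE spans of Cish and Socs3 were therefore not searched. The match is a description of the letters in this window, and it was not tested whether a factor binds there.

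The 10 transcripts spanned a wide range of levels. In WT libraries Cish was the highest, at 84.2 ± 4.55 (SD, n = 3), and its values, 79.6 to 88.8, overlapped those of Pim1. Next came Jak1, Socs2, Pim2, Stat3, Jak2, Osm and Socs1, and the ranges of neighbors in this order did not overlap. Socs3 was the lowest, at 1.18 ± 0.0695 (SD, n = 3). Among the genes tested, the WT level of Cish lay at percentile 86.4 and that of Socs1 at percentile 39.3. In libraries labelled Sdc1 KO the order changed at the top. Pim1 led at 69.6 ± 1.08 (SD, n = 3), and Pim2, Jak1, Socs2 and Cish followed with ranges that overlapped from each to the next. Stat3, Jak2, Osm, Socs1 and Socs3 kept their places.

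**Figure D1:**
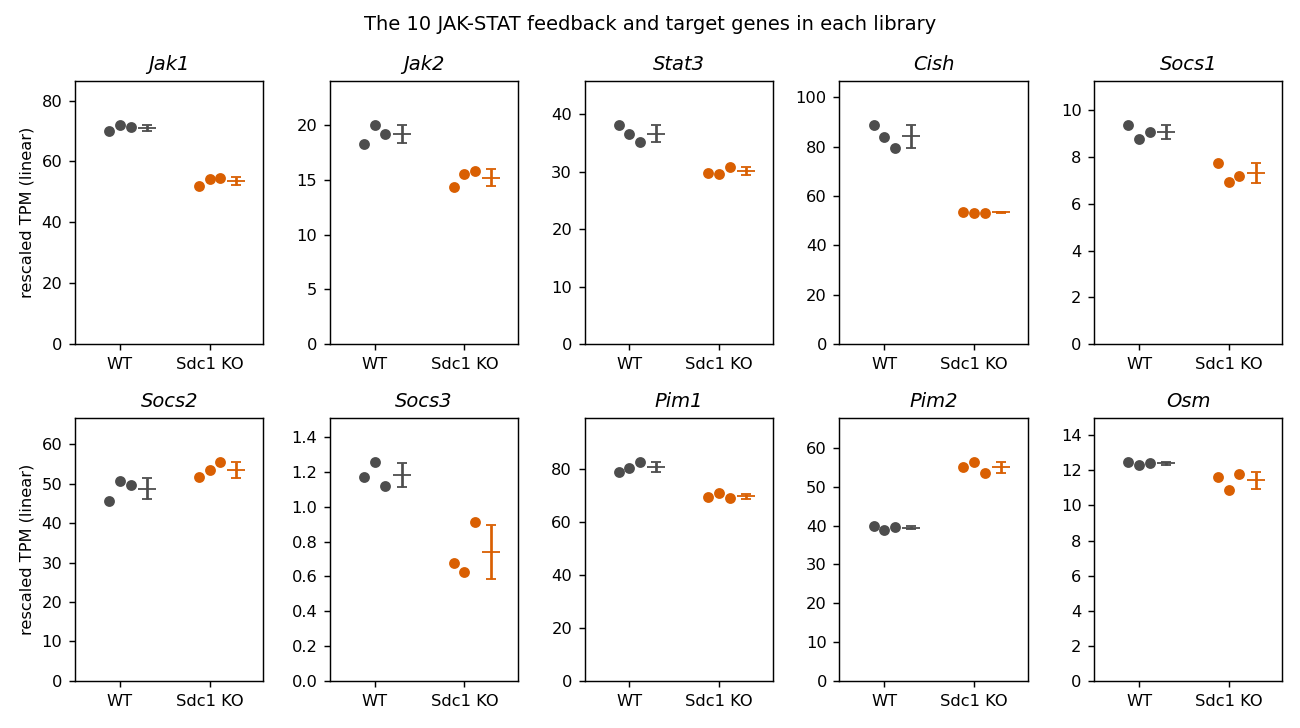
Rescaled TPM (linear axes from 0, a separate axis for each gene) of the 10 genes in each WT and Sdc1 KO library, with points for single libraries and bars for the mean and SD of 3 libraries. No gene had overlapping groups, and Socs2 and Pim2 are the 2 genes with higher values in the libraries labelled Sdc1 KO.

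Osm encodes oncostatin M, a cytokine of the gp130 family that signals through JAK1 and JAK2 to STAT3 and is itself induced by STAT5 in blood cells. The gene lies at chr11:4236420-4241026 on the plus strand. Its values were 12.5, 12.3 and 12.4 in WT libraries and 11.6, 10.9 and 11.8 in libraries labelled Sdc1 KO. The WT libraries lay close together and above the other 3, with a narrow gap. The log2 fold change of -0.10 ± 0.044 (SE) had an adjusted p of 0.075 from limma, and when each library was set to a sum of 1000000 it turned to 0.033 (adjusted p = 0.54). After quantile scaling it was -0.13 and was called lower (adjusted p = 0.04).

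Jak1 encodes the kinase shared by the receptors of the gp130, common gamma chain and interferon families, and was the most abundant JAK kinase transcript. The gene lies at chr4:101152367-101265282 on the minus strand. It was at 69.9, 72.0 and 71.2 in WT libraries and at 52.1, 54.2 and 54.5 in libraries labelled Sdc1 KO. The groups were well apart, and each was tight. The group mean fell from 71.0 ± 1.05 to 53.6 ± 1.31 (SD, n = 3 each), a log2 fold change of -0.40 ± 0.032 (SE, adjusted p = 5.7e-05).

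Jak2 encodes the kinase of the erythropoietin, thrombopoietin and GM-CSF/IL-3 receptors, and lies at chr19:29251828-29313080 on the plus strand. Its values were 18.3, 20.0 and 19.2 in WT libraries and 14.3, 15.5 and 15.8 in those labelled Sdc1 KO. All 3 WT libraries were higher, at a level well below that of Jak1. The log2 fold change was -0.32 ± 0.054 (SE, adjusted p = 0.0019), a fall of the mean from 19.2 ± 0.85 to 15.2 ± 0.815 (SD, n = 3 each). The ratio of Jak2 to Jak1 within a library was 0.27 ± 0.00801 in WT and 0.284 ± 0.0085 in Sdc1 KO libraries (SD, n = 3 each), with overlapping groups (two-sided exact permutation test, p = 0.2, or 0.24 adjusted over the 6 ratios computed).

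Stat3 encodes the transcription factor that gp130 cytokines activate, and lies at chr11:100885098-100939540 on the minus strand. It was at 38.1, 36.5 and 35.2 in WT libraries and at 29.8, 29.6 and 30.8 in libraries labelled Sdc1 KO. The Sdc1 KO libraries lay close together below the lowest WT library. The log2 fold change was -0.27 ± 0.04 (SE, adjusted p = 0.00099). The end of Stat3 overlaps that of Stat5a, on the other strand, and 2.36% of the 31-base words of Stat3 transcripts occur in another gene. Of these 226 words 42 occur in Stat5a, the most with any 1 gene. Stat5a moved the other way, from 25.9 ± 0.617 to 30.3 ± 0.548 (SD, n = 3 each; log2 fold change 0.22, adjusted p = 0.0015).

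Cish encodes CIS, the inhibitor that STAT5 induces and that occupies STAT5 docking sites on cytokine receptors. It lies at chr9:107296026-107302784 on the plus strand. Its values were 88.8, 84.1 and 79.6 in WT libraries and 53.7, 53.2 and 53.3 in libraries labelled Sdc1 KO. The WT libraries were spread and the Sdc1 KO libraries nearly equal, with a wide gap between the groups. The mean fell from 84.2 ± 4.55 to 53.4 ± 0.26 (SD, n = 3 each), a log2 fold change of -0.65 ± 0.043 (SE, adjusted p = 2.4e-05). This was the largest fall among the tested genes of the 10, and 13.1% of all genes tested had a larger change in either direction. Of the 31-base words of Cish transcripts, 10.4% occur in another gene, most of them in an antisense gene that the table does not list, and it is not stated whether the counting used strand.

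Socs1 encodes an inhibitor that blocks the JAK kinase domain, and lies at chr16:10782240-10785536 on the minus strand. It was at 9.38, 8.76 and 9.07 in WT libraries and at 7.77, 6.93 and 7.21 in those labelled Sdc1 KO. All WT libraries were higher at this low level. Its log2 fold change of -0.28 ± 0.055 (SE, adjusted p = 0.0039) was called under each of the 14 alternatives, with adjusted p from 0.0025 to 0.049.

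Socs2 encodes an inhibitor best known as the brake on the growth hormone receptor, and lies at chr10:95385362-95417180 on the minus strand. Its values were 45.7, 50.8 and 49.6 in WT libraries and 51.6, 53.4 and 55.6 in libraries labelled Sdc1 KO. The Sdc1 KO libraries were the higher ones, and the gap between the highest WT and the lowest Sdc1 KO library was small beside the spread within each group. The log2 fold change was 0.13 ± 0.05 (SE, adjusted p = 0.051), just outside the threshold of 0.05. It was positive in all 15 fits and called in 6 of them. With 1 library left out it ran from 0.09 (adjusted p = 0.14, without WT replicate 1) to 0.16 (adjusted p = 0.038 without WT replicate 2 and 0.048 without Sdc1 KO replicate 1), and without Sdc1 KO replicate 3 it was 0.11 (adjusted p = 0.15). Of the 31-base words of Socs2 transcripts, 6.55% occur in other genes, 1886 in all. Of these 625 words, 476 occur in 1 gene, which was at 0.208 in WT and 0.249 in Sdc1 KO libraries on average.

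Socs3 encodes the inhibitor that binds gp130 and the G-CSF receptor and is a classical STAT3 target. It lies at chr11:117966079-117970047 on the minus strand. It was at 1.17, 1.26 and 1.12 in WT libraries and at 0.68, 0.623 and 0.915 in those labelled Sdc1 KO. The groups did not overlap, at a level low beside the other 9 genes. Its mean over the 6 libraries was 0.962, just under the minimum, so it had no test with the other 9. With no minimum the log2 fold change was -0.33 ± 0.079 (SE, adjusted p = 0.025).

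Relative to Cish, the other feedback inhibitors did not change alike. The ratio of Socs2 to Cish within a library was 0.515, 0.603 and 0.623 in WT libraries and 0.96, 1.0 and 1.04 in libraries labelled Sdc1 KO. The ratio of Socs1 to Cish was 0.108 ± 0.00523 in WT and 0.137 ± 0.00725 in Sdc1 KO libraries (SD, n = 3 each). Neither ratio had overlapping groups, and neither depends on the scaling between libraries. The two-sided exact permutation test gave p = 0.1 for each, the smallest that 3 against 3 libraries allow, or 0.15 adjusted over the 6 ratios computed, so this design cannot reach 0.05. The ratio of Socs3 to Cish was 0.0141 in WT and 0.0138 in Sdc1 KO libraries on average, with overlapping groups (exact permutation test, p = 0.9).

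Pim1 encodes a serine/threonine kinase induced by STAT3 and STAT5, and lies at chr17:29490753-29496112 on the plus strand. It was at 78.9, 80.3 and 82.7 in WT libraries and at 69.2, 70.8 and 68.8 in libraries labelled Sdc1 KO. The groups did not overlap. The log2 fold change of -0.21 ± 0.032 (SE, adjusted p = 0.0011) was the smallest called among the 10, and with each library set to a sum of 1000000 it was -0.063 and was not called (adjusted p = 0.13). Of the 31-base words of its transcripts, 11.5% occur in another gene, most of them in an antisense gene that the table does not list.

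Pim2, a close relative of Pim1 with overlapping substrates, was the one gene of the 10 called higher in libraries labelled Sdc1 KO. It lies at chrX:7878262-7883432 on the plus strand. Its values were 39.8, 39.0 and 39.6 in WT libraries and 55.1, 56.5 and 53.6 in libraries labelled Sdc1 KO. Both groups were tight and far apart. The mean rose from 39.5 ± 0.431 to 55.1 ± 1.46 (SD, n = 3 each), a log2 fold change of 0.47 ± 0.033 (SE, adjusted p = 3.1e-05), and it was called in all 15 fits. Another gene holds 4.52% of the 31-base words of Pim2 transcripts. That gene was at 1.66e-06 in WT and 7.17e-07 in Sdc1 KO libraries on average. Because the gene is X-linked and the groups differ in sex genes, the X chromosome was examined. Of 411 tested X-linked genes, 25.8% were called higher and 29.2% lower, beside 29.4% and 31.5% of 11554 autosomal genes. The part of sex in the value of Pim2 was not tested.

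The PIM kinases therefore differed in direction within the same libraries. The ratio of Pim1 to Pim2 was 1.98, 2.06 and 2.09 in WT libraries and 1.25, 1.25 and 1.28 in libraries labelled Sdc1 KO. Every WT library had the higher ratio (two-sided exact permutation test, p = 0.1, the smallest possible, and 0.15 adjusted over the 6 ratios). The ratio of Osm to Jak1 was 0.174 ± 0.00423 in WT and 0.214 ± 0.0112 in Sdc1 KO libraries (SD, n = 3 each), again without overlap at p = 0.1 by the same exact test.

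Of the 9 genes tested, 6 were called lower (Jak1, Jak2, Stat3, Cish, Socs1 and Pim1), 1 was called higher (Pim2) and 2 were not called (Socs2 and Osm). Among all genes tested, 60.7% were called, 29.3% higher and 31.3% lower. The groups did not overlap in any of the 10 genes, where 66.7% of all tested genes had groups without overlap. Their median log2 fold change stood at -0.27, beside -0.0097 for all tested genes, and the median size was 0.28 beside 0.23. Setting each library to a sum of 1000000 moved the median of all genes to 0.12 and the calls to 43.5% higher and 19.5% lower, and of the 9 genes 2 were then called higher and 5 lower. Relative to that median, the log2 fold changes were -0.62 for Cish, -0.38 for Jak1, -0.30 for Jak2, -0.27 for Socs1, -0.25 for Stat3 and -0.19 for Pim1, while Pim2 stood at 0.49. Setting the sums shifts the log2 fold changes of most genes by nearly the same amount, and subtracting the median takes that shift out again. That the 9 genes kept their signs relative to the median is therefore no check of the scaling. Without the subtraction Osm turned to 0.033 and Pim1, at -0.063, was not called.

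The families to which these genes belong were divided. Of the JAK kinases, Jak3, the lymphoid partner of Jak1 at common gamma chain receptors, rose from 4.03 ± 0.523 to 8.8 ± 0.535 (SD, n = 3 each; log2 fold change 0.97, adjusted p = 0.0001). Tyk2, the partner of Jak1 at the type I interferon receptor, rose from 15.2 ± 0.402 to 21.1 ± 0.565 (log2 fold change 0.45, adjusted p = 9.5e-05). Both JAK genes outside the 10 thus rose while Jak1 and Jak2 fell, in all 15 fits. Jak1 made up 64.9% of the summed JAK transcripts in WT and 54.3% in Sdc1 KO libraries, Jak2 17.5% and 15.4%, Tyk2 13.9% and 21.4%, and Jak3 3.68% and 8.92%.

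**Figure D2:**
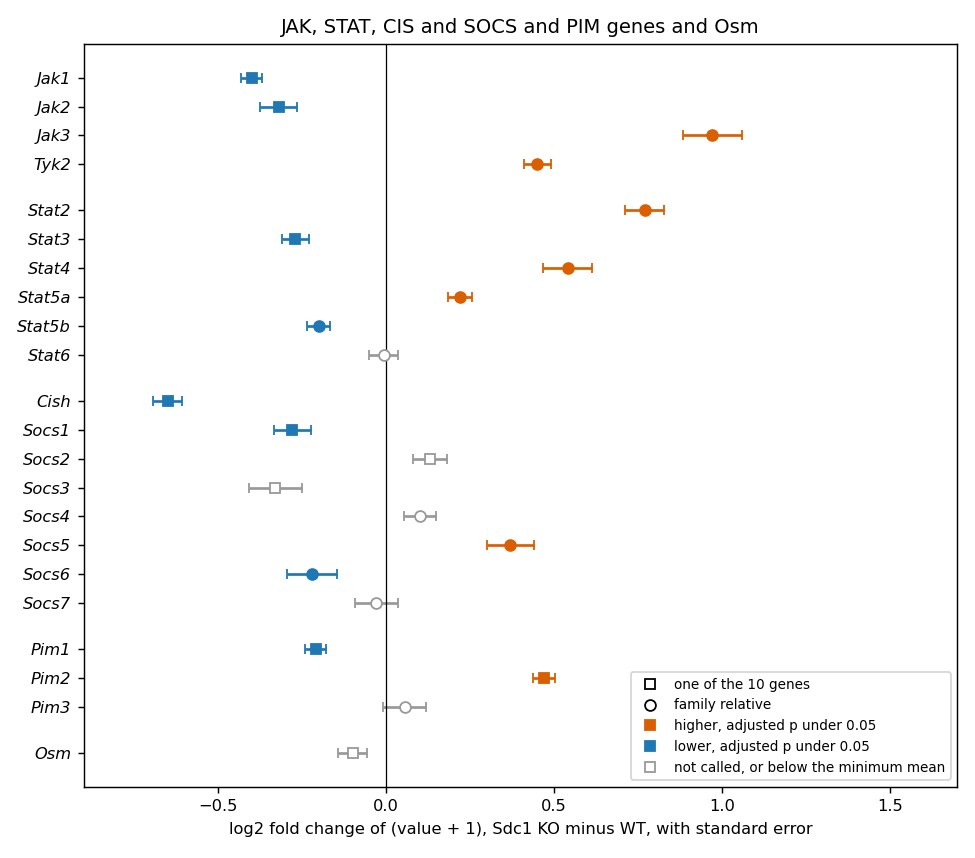
Log2 fold change of (value + 1), Sdc1 KO minus WT, with standard error from limma, for the 10 genes (squares) and their family relatives (circles); orange marks higher, blue lower and open gray symbols genes not called or below the minimum mean. Cish has the lowest value, -0.65, Jak3 the highest, 0.97, and each family holds members on both sides of 0.

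Of the 5 STAT genes analysed here besides Stat3, 3 rose, 1 fell and 1 was not called, with a median log2 fold change of 0.22. Stat2, which acts downstream of type I interferon, rose most (log2 fold change 0.77, adjusted p = 4.1e-05), followed by Stat4 (0.54) and Stat5a (0.22). Stat5b, the close paralog of Stat5a, fell from 22.7 ± 0.384 to 19.6 ± 0.25 (SD, n = 3 each; log2 fold change -0.20, adjusted p = 0.002), a call that was lost with each library at a sum of 1000000 (-0.06, adjusted p = 0.16). Stat6 was at 35.1 and 35.0 on average (log2 fold change -0.0073, adjusted p = 0.9), and its sign turned in 4 alternatives. Stat3 made up 28.0% of the sum of these 6 genes in WT libraries, close to the 26.9% of Stat6, and 22.8% in libraries labelled Sdc1 KO. The share of Stat5a was 19.8% in WT and 23.0% in Sdc1 KO libraries and that of Stat5b 17.4% and 14.9%, and shares were not tested.

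Of the 4 SOCS genes outside the 10, Socs5 rose (log2 fold change 0.37, adjusted p = 0.0031), Socs6 fell (-0.22, adjusted p = 0.037, called in 9 of 15 fits), and Socs4 and Socs7 were not called. The summed level of CIS and SOCS transcripts went from 168 ± 3.54 to 140 ± 2.55 (SD, n = 3 each). The share of Cish in that sum was 50.2% in WT and 38.3% in Sdc1 KO libraries, and that of Socs2 was 29.0% and 38.3%. In the libraries labelled Sdc1 KO, Socs2 and Cish thus stood level as the main feedback transcripts. Pim3, the remaining PIM kinase, was at 17.7 in WT and 18.4 in Sdc1 KO libraries on average and was not called (log2 fold change 0.055, adjusted p = 0.49). The summed PIM level was 138 ± 1.95 in WT and 143 ± 2.45 in Sdc1 KO libraries (SD, n = 3 each), with Pim1 at 58.5% and 48.6% of it and Pim2 at 28.7% and 38.5%.

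**Figure D3:**
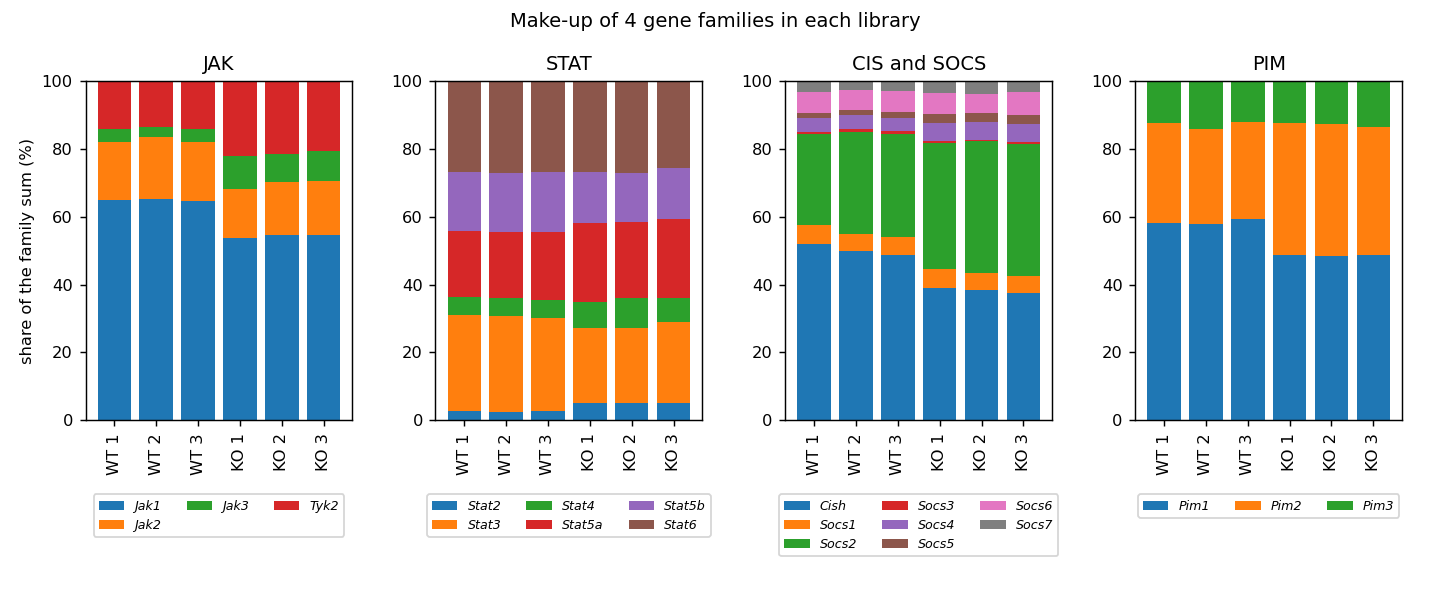
Share of each gene in the summed value of the genes of its family analysed here, in percent (stacked bars from 0 to 100), for the JAK, STAT, CIS and SOCS, and PIM families in each of the 6 libraries. The bars of a group look alike, and between groups the share of Cish goes from 50.2% to 38.3%, that of Pim1 from 58.5% to 48.6% and that of Jak1 from 64.9% to 54.3%.

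Upstream of these genes, 8 of 15 listed gp130 cytokines and receptors were tested, and 4 rose and 2 fell, with a median log2 fold change of 0.42. With each library at a sum of 1000000, 1 fell, and at a minimum mean of 5, where fewer were tested, 2 rose and 1 fell. Across all genes tested, 29.3% were called higher and 31.3% lower, or 43.5% and 19.5% with each library at a sum of 1000000. Lif, a gp130 cytokine that sustains STAT3 signaling, was at 4.78, 4.88 and 5.10 in WT libraries and at 12.8, 11.4 and 11.6 in libraries labelled Sdc1 KO (log2 fold change 1.13, adjusted p = 8.5e-06). Il6, the founding cytokine of the family, moved the other way, from 10.1, 10.8 and 8.24 to 3.78, 3.72 and 3.40 (log2 fold change -1.20, adjusted p = 5.4e-05). Il27ra, a receptor chain that pairs with gp130, rose from 5.7 to 11.8 (log2 fold change 0.93, adjusted p = 4.3e-06). Lif and Il27ra thus rose by more than any of the 10, and Il6 fell by more than Cish. The receptor chains that would receive oncostatin M were scarce. Osmr was at 0.0124 in WT and 0.0352 in Sdc1 KO libraries, Il6st, which encodes gp130, at 0.896 and 0.826, and both were below the minimum mean, while Lifr was at 3.8 and 2.97 (log2 fold change -0.27, adjusted p = 0.0098), a call lost with each library at a sum of 1000000 (-0.16, adjusted p = 0.076).

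Of 28 other JAK-coupled receptor genes, 20 were tested, and 12 fell, 3 rose and 5 were not called, with a median log2 fold change of -0.32. The count that rose was 1 without WT replicate 2 and without Sdc1 KO replicate 3. Among all genes tested, 31.3% were called lower and 29.3% higher. Il4ra, a receptor chain for IL-4 and IL-13, fell from 24.1 to 9.46 (log2 fold change -1.26, adjusted p = 2.6e-06), and Csf2rb2, the IL-3-specific beta chain, from 9.86 to 3.82 (-1.17, adjusted p = 4.8e-06). Il2rg, the common gamma chain with which JAK3 associates, rose from 80.6 to 92.8 (0.20, adjusted p = 0.003). Epor, the JAK2-coupled erythropoietin receptor, was at 35.0 and 38.7 (0.14, adjusted p = 0.042) and was called in 8 of 15 fits.

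Of 13 other brakes on the pathway, PIAS proteins, phosphatases and adaptors, 5 fell, 1 rose and 7 were not called, with a median log2 fold change of -0.10. Ptpn1, a phosphatase that acts on JAK2 and TYK2, fell from 51.8 ± 1.1 to 26.1 ± 0.993 (SD, n = 3 each; log2 fold change -0.96, adjusted p = 3.3e-06). Ptpn6, which encodes SHP-1, fell from 121 ± 0.736 to 89.1 ± 3.29 (log2 fold change -0.43, adjusted p = 5.4e-05). Pias4 rose from 9.28 to 11.7 (0.30, adjusted p = 0.017). With each library at a sum of 1000000, 5 of these brakes were called higher and 3 lower. At that sum 43.5% of all genes tested were called higher and 19.5% lower, and on the deposited scale 29.3% and 31.3%.

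Other targets of the pathway moved both ways. For comparison, 29.3% of all genes tested were called higher and 31.3% lower, or 43.5% and 19.5% with each library at a sum of 1000000. Of 10 tested STAT5 target genes outside the 10, 5 fell, 1 rose and 4 were not called (median log2 fold change -0.077), and with each library at a sum of 1000000 the counts were 2 lower and 3 higher. The count lower was 3 without WT replicate 2, without WT replicate 3 and without Sdc1 KO replicate 1. Bcl2l1, which encodes the survival protein BCL-xL, fell from 30.3 to 23.3 (log2 fold change -0.37, adjusted p = 0.00033), Id1 fell from 33.9 to 26.3 (-0.35, adjusted p = 0.0025), and Myc rose from 124 to 141 (0.18, adjusted p = 0.0037). Of 11 tested STAT3 target genes, 8 fell, 2 rose and 1 was not called (median -0.30), and with each library at a sum of 1000000, 5 fell and 2 rose. The 2 that fell most, Mmp9 (log2 fold change -1.92) and Lrg1 (-1.62), are also genes of maturing neutrophils, and Mmp9 stands in the neutrophil list too, while Vegfa (0.56) and the mitotic survivin gene Birc5 (0.30) rose. Il4ra is counted as a fall both among these STAT3 targets and among the other JAK-coupled receptors. Il2ra is likewise counted as a fall among those receptors and among the STAT5 targets, so these lists are not separate. Of 13 tested interferon target genes, 5 rose, 5 fell and 3 were not called, with a median of 0.026. With each library at a sum of 1000000, 6 rose and 3 fell, and at a minimum mean of 5, 1 fell. Oas1a (0.40) and Bst2 (0.36) were among those that rose, and Ifi35 (-0.19, adjusted p = 0.0035) fell but was not called with each library at a sum of 1000000 (-0.045, adjusted p = 0.29).

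**Figure D4:**
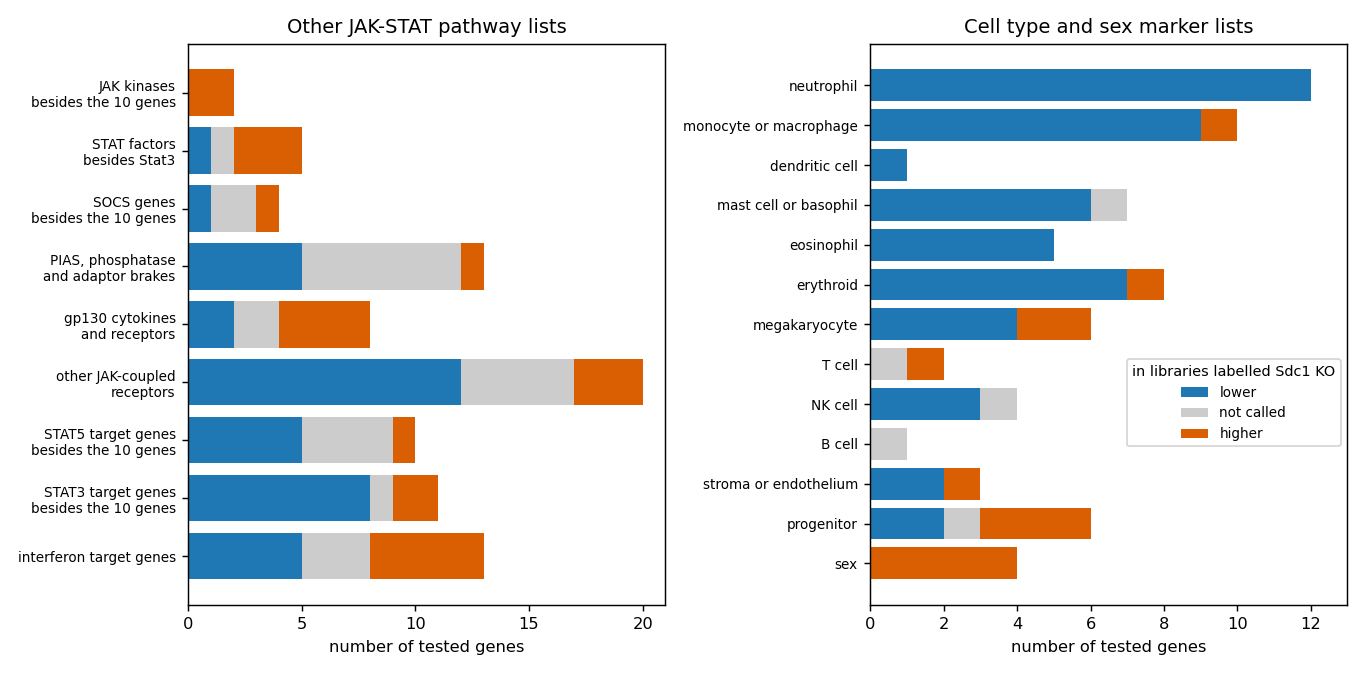
Number of tested genes called lower (blue), not called (gray) and called higher (orange) in libraries labelled Sdc1 KO, for the other JAK-STAT pathway lists and for the cell type and sex marker lists (bars stacked from 0). Both JAK kinases outside the 10 genes were higher, 12 of 20 other JAK-coupled receptors were lower, and all 12 neutrophil genes were lower.

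Markers of mature blood cells, which the Lin- sort would remove, were present and moved with these genes. The 12 neutrophil markers all fell, with a summed level of 13300 to 14200 in WT and 4760 to 4900 in Sdc1 KO libraries, led by S100a8. Of 10 tested monocyte or macrophage markers 9 fell (574 to 596 against 256 to 264, led by Ly6c2), and of 8 erythroid markers 7 fell (9490 to 10200 against 5260 to 5660, led by Hbb-bt). All 5 eosinophil markers fell (770 to 804 against 366 to 369, led by Prg2), and of 7 mast cell or basophil markers 6 fell (583 to 602 against 320 to 329). Gata2, the most abundant of the mast cell or basophil and also of the progenitor markers, was at 161 and 166 on average and was not called. Of 6 progenitor markers 3 rose, Kit, Myb and Sox4, and 2 fell, Ly6a from 8.82 to 2.82 (log2 fold change -1.36, adjusted p = 2.7e-05) and Cd34 from 47.4 to 39.9 (-0.24, adjusted p = 0.0019), with a summed level of 291 to 309 in WT and 314 to 319 in Sdc1 KO libraries, so progenitor markers were present in both groups. Of 6 megakaryocyte markers 4 fell and 2 rose (499 to 527 against 512 to 526, led by Pf4). The T cell markers summed to 7.83 to 9.74 in WT and 16.1 to 17.0 in Sdc1 KO libraries, and nearly all of this was Lck (6.89 in WT and 14.1 in Sdc1 KO libraries on average). The other T cell markers were at 1.65 or below on average in either group and none was called, with Cd3e listed at 0 in every WT library. Of 4 NK cell markers 3 fell (347 to 358 against 287 to 301, led by Nkg7). Of 3 stromal markers 2 fell and 1 rose (40.4 to 42.4 against 40.2 to 40.5, led by Col1a2). The B cell markers, led by Cd79b, were at 2.85 to 3.35 and 2.62 to 3.32, and the dendritic cell markers at 13.7 to 15.1 and 7.85 to 8.70. Nearly all of the dendritic sum was Flt3 (13.2 in WT and 7.71 in Sdc1 KO libraries on average). Flt3 is also part of the surface profile by which the study defines its leukemia stem cells. The other dendritic markers were at 0.629 or below on average in either group and were not tested. The part of these cells in the values of the 10 genes and of Jak3, Lif, Il6 and the receptors was not tested.

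The tested genes whose profiles over the 6 libraries lay nearest to that of Cish, by Euclidean distance of centered log2(value + 1) among 8965 genes whose mean reached 5, were Prkcq (0.0517), Trappc12 (0.0788) and Htatip2 (0.0806), with log2 fold changes of -0.68, -0.67 and -0.62. Nearest to Pim2 were Dynlt1b (0.0437), Zzef1 (0.044) and Rangap1 (0.0467), with log2 fold changes of 0.48, 0.44 and 0.46.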

How the data were processed

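RNA-seq of Lin- bcCML cells (150 ng of RNA per library, TruSeq Stranded mRNA, single reads of 75 bases) was analysed in 3 WT and 3 Sdc1 KO libraries, grouped by the labels. The authors ran kallisto and sleuth and deposited a signal per gene, TPM rescaled between libraries. The submitters' processing notes name sleuth 0.30.0 and mm10, and the kallisto version and transcriptome are not given in the sources used here. Of 36083 genes, 11369 were at 0 in all libraries, and read depth is unknown. A deposited table of sleuth's Wald test holds only the authors' own comparison (effect sizes, p-values and q-values) and was not used. Identifiers of 35454 genes were matched to symbols, and gene positions are from GENCODE M21 (GRCm38). Xist was not analysed here, and 1 gene is not reported here and was left out of the lists and family sums.

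The groups were compared with limma (version 3.58.1, R 4.3.3) on log2(value + 1) in the 12155 genes whose mean reached 1. The model held group alone, eBayes used a variance trend, and calls were made at a Benjamini-Hochberg adjusted p of 0.05. The design assumed plain TPM and the test was kept. The script was tested on simulated data. The 14 alternatives changed the pseudocount (0.5 and 0.1), the minimum mean (none and 5), the scaling (sum of 1000000 and quantile), the trend and the replicate block, or left out 1 library. Shared words of 31 bases were counted in GENCODE M21 transcripts. Ratios within a library used exact permutation tests. Tables and figures were made in Python 3.11.15 with pandas 2.3.3, numpy 2.4.6, scipy 1.17.1 and matplotlib 3.10.9.

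The 10 genes and all lists were chosen with earlier results of these data known, and support nothing independently. From each pathway list, up to 2 genes with the largest rise and 2 with the largest fall were named if called, not overlapping and of mean 5 or more, plus Stat5a and Stat5b. From the cell type marker lists the most abundant gene was named. Family sums, shares, the remaining family members, Osmr, Il6st and Lifr, the X-linked counts and overlapping genes were added after values were seen, as were Kit, Myb, Sox4, Ly6a, Cd34, Cd3e and Il2ra.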

Additional observations from a re-analysis of the deposited data

How the results depend on the processing

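Among the 10 genes, 6 were called lower and 1 higher, and leaving out 1 library gave 6 lower each time and 1 to 2 higher. The count called higher was 2, with Socs2 added, at a minimum mean of 5, with each library at a sum of 1000000, after quantile scaling and with the replicate block. The replicate numbers did not pair the libraries (correlations of same-numbered deviations 0.151, -0.00828 and 0.0185, and not every library correlated best with its own number), and the block gave 3653 genes higher and 3971 lower. With each library at a sum of 1000000, 2367 genes were called lower, and 30.9% of calls were lower, beside 51.7% on the deposited scale and 47.8% after quantile scaling. Of 93 tested genes of the 10 and the pathway lists, the sign turned in 15 at a sum of 1000000 and in 6 after quantile scaling. Of these, 1 had been called, Il2ra, named after its values were seen (-0.12, adjusted p = 0.027 from limma, against 0.025, adjusted p = 0.6, at that sum). Among the genes named in the text and the remaining family members, it turned at that sum for Osm (0.033), Cd79b (0.024), Stat6 (0.14) and Socs7 (0.094), after quantile scaling for Stat6 (0.0084), without WT replicate 1 for Stat6 (0.0096) and Socs7 (0.019), without WT replicate 2 for Gata2 (-0.0067) and Cd79b (0.0023), and without Sdc1 KO replicate 3 for Stat6 (0.033). With 1 library left out, the log2 fold changes ran from -0.14 to 0.0023 for Cd79b, from -0.028 to 0.033 for Stat6 and from -0.066 to 0.019 for Socs7. Osm, Cd79b, Stat6, Socs7 and Gata2 were not called on the deposited scale, and the cause was not tested. Jak1, Jak2, Stat3, Cish, Socs1 and Pim2 were called in all 15 fits. With no counts, the precision of low genes such as Socs3 cannot be given from depth.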
